A study of Saccharomyces cerevisiae with 16 samples.

Results

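The experiment set ribosomes pulled down through eIF3c against ribosomes pulled down through eIF3a on the mRNAs of 4 initiation factor subunits. Its members were chosen by label. They are 1 library of eIF3c-bound 80S (number 1-2), 3 libraries of eIF3a-bound 80S (1-1, 2-1 and 3-1) and the 4 libraries of unselected 80S with the same numbers, in all 8 of the 16 libraries of the series. The eIF3c-bound library and its unselected partner came from the Saccharomyces cerevisiae strain H25, which carries FLAG on eIF3c (gene NIP1). The 3 eIF3a-bound libraries and their partners came from strain SY182, whose FLAG tag sits on eIF3a, the product of TIF32 (called RPG1 in the coverage sheets). Tagged subunit and strain therefore cannot be told apart. All cultures grew in YPD at 30 °C, and crosslinking took 1 h on ice in 0.8% formaldehyde. RNase I trimmed the mRNA to footprints, 80S complexes were separated, and selected samples went through anti-FLAG immunoprecipitation. Nothing in the labels says that the libraries numbered 1-1, 2-1 and 3-1 were separate cultures, so their spread may be technical.

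eIF3 is the largest initiation factor and the scaffold on which the small ribosomal subunit meets mRNA and the other factors. In yeast, eIF3a and eIF3c contact each other directly, eIF3a also holds eIF3b, and eIF3b carries eIF3g and eIF3i. eIF2, of which eIF2β is a subunit, brings the initiator tRNA and meets eIF3 in a larger assembly with eIF5. When subunits of a complex bind each other during synthesis, pulling on a finished subunit brings down the ribosome that is still making its partner. Footprints of such ribosomes begin where the nascent chain first offers a binding surface and run on to the stop codon. Coverage was given for RPG1 (eIF3a), TIF35 (eIF3g), PRT1 (eIF3b) and SUI3 (eIF2β). NIP1 itself was not among the 4 genes.

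The 4 sheets span each coding region with 50 nt on either side. RPG1 (YBR079C) lies on chromosome II at 395383 to 398277 of R64 and encodes 964 residues. TIF35 (YDR429C, chromosome IV, 1324477 to 1325301) encodes 274 residues, PRT1 (YOR361C, chromosome XV, 1015361 to 1017652) 763 residues, and SUI3 (YPL237W, chromosome XVI, 100496 to 101353) 285 residues. Total library depth is unknown for 80S. The upward steps in coverage give a lower bound on footprints per gene. It was 2405 to 11202 for the eIF3c-bound library, 361 to 234633 for the eIF3a-bound libraries and 854 to 3053 for the unselected libraries. The shallowest was the eIF3a-bound library 2-1 over SUI3 and the deepest the eIF3a-bound library 3-1 over PRT1.

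In the comparisons along a gene, coverage in each library was divided by its own total over the coding region. The result for each selected library was then divided by that for the unselected library of the same number, in bins of 50 nt. A ratio of 1 means that the bin held the same share of the gene's footprints with and without selection. Since each gene's shares sum to a fixed total, high ratios late in a gene go with low ratios early in it. The place of a rise was taken as the single step in log2 ratio that left the least squared error.

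**Figure D1:**
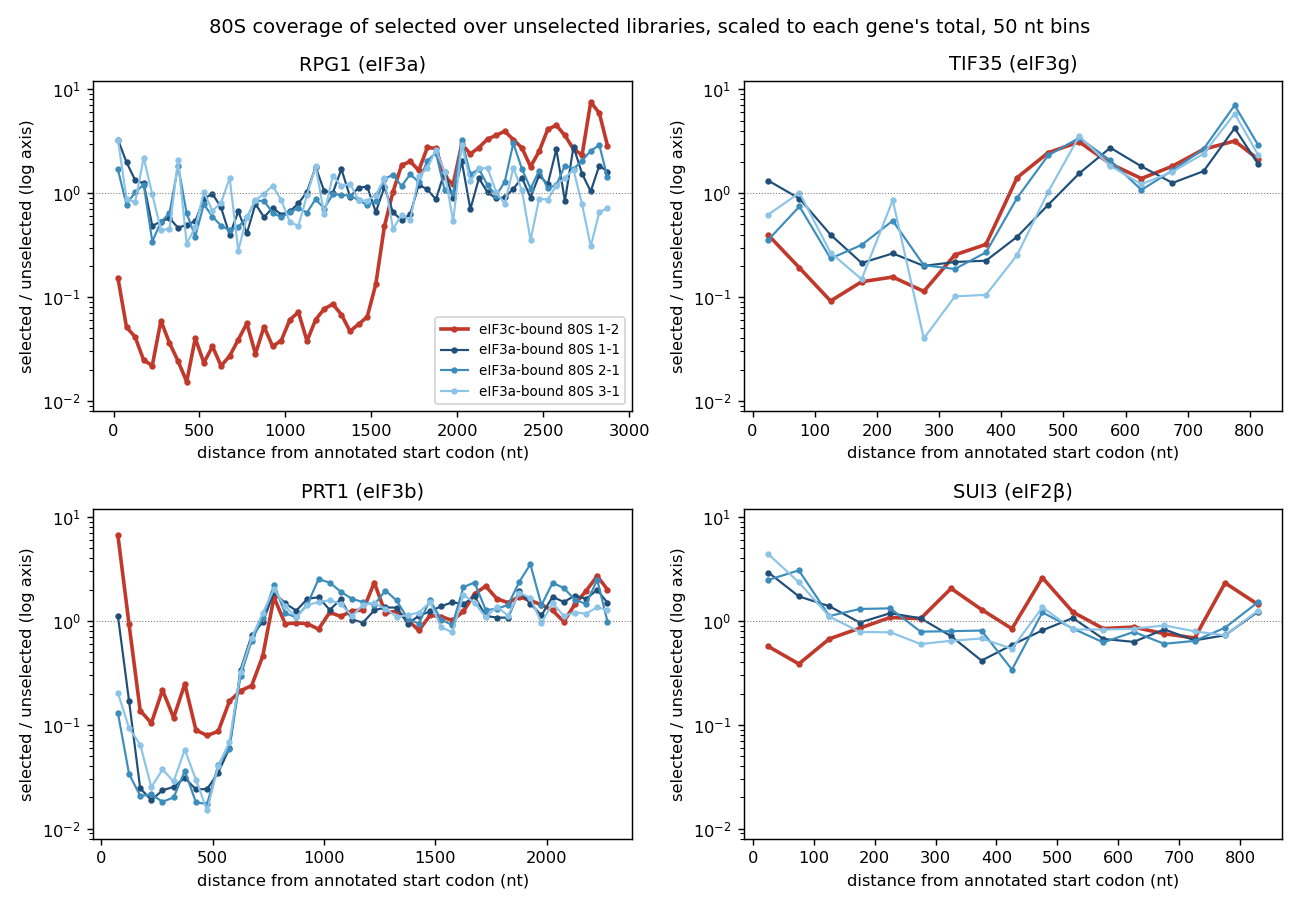
Ratio of selected to unselected 80S coverage (log axis), each scaled to the gene's total, against distance from the annotated start codon in 50 nt bins, with a line for the eIF3c-bound library and one for each of 3 eIF3a-bound libraries. The eIF3c-bound line steps up in RPG1 at nt 1551, all 4 lines step up in TIF35 between nt 401 and 501, the lines of PRT1 step up at nt 601 (eIF3a) and 751 (eIF3c), and no line steps up by more than 2.21-fold in SUI3.

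On RPG1, the mRNA of eIF3a itself, the pull-down through eIF3c brought ribosomes from the 3′ part of the reading frame. In the eIF3c-bound library 97.2% of RPG1 coverage lay in the 3′ 50% of the coding region. The eIF3a-bound libraries 1-1, 2-1 and 3-1 held 45.9%, 56.8% and 50.1% there. The unselected libraries held 41.8% (1-2), 41.2% (1-1), 39.3% (2-1) and 48.6% (3-1). The eIF3c-bound library thus stood above all 7 others, and the eIF3a-bound and unselected ranges overlapped. The point below which 50% of RPG1 coverage lay was nt 2262 in the eIF3c-bound library, nt 1335, 1620 and 1451 in the eIF3a-bound libraries and nt 1122 to 1406 in the unselected libraries.

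The change in RPG1 was abrupt in the eIF3c-bound library. Over the 31 bins before nt 1551 its ratio ran from 0.0154 to 0.153, with a median of 0.0414. Over the 27 bins from there on it ran from 0.478 to 7.51, with a median of 2.72. At the step itself the ratio was 0.0645 at nt 1451, 0.133 at nt 1501, 0.478 at nt 1551, 1.03 at nt 1601 and 1.86 at nt 1651. Codon 517 opens the bin of the step, a little past the middle of the protein. The step held 93.5% of the variance of the log2 ratios, and coverage after it was 51.3 times that before it, relative to the unselected library.

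No comparable step was found in RPG1 with eIF3a. The best single step held 19.1% of the variance in library 1-1, 54.2% in 2-1 and 5.84% in 3-1. It was upward by 0.62 and 1.12 on the log2 scale in 1-1 and 2-1, and in 3-1 the last bins were lower by 0.89. In library 2-1 it fell at nt 1551, the same bin as with eIF3c, with a fold of 2.17. Directly compared, the eIF3c-bound ratio lay below all 3 eIF3a-bound ratios in 31 of the 31 bins before nt 1551 and above all 3 in 22 of 27 bins from there on. Over the 137 bins of the 4 genes, 41.6% lay below and 39.4% above. The split at nt 1551 was fitted to the eIF3c-bound library itself, so these counts describe its step and do not test it.

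TIF35 encodes eIF3g, a small subunit with an RNA recognition motif, and both tagged subunits brought down ribosomes from its 3′ part. The 3′ 50% held 86.8% of TIF35 coverage in the eIF3c-bound library and 72.5%, 77.9% and 84.3% in the eIF3a-bound libraries 1-1, 2-1 and 3-1. In the unselected libraries it held 43.3% (1-2), 46.8% (1-1), 33.4% (2-1) and 47.4% (3-1). The 4 selected libraries did not overlap the 4 unselected ones. The eIF3c-bound value lay above the highest eIF3a-bound value by less than the spread among the eIF3a-bound libraries.

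The steps in TIF35 lay close together. With eIF3c the ratio stepped up at nt 401 (codon 134), by 3.53 on the log2 scale. With eIF3a it stepped up at nt 501, 401 and 451 in libraries 1-1, 2-1 and 3-1, by 2.37, 2.81 and 3.17. Leaving out the first 200 nt, the middle between the levels before and after the step was first reached in the bin at nt 401 with eIF3c and at nt 501, 451 and 501 with eIF3a. Within those first 200 nt, the first bin of library 1-1 (1.32) was already above its middle of 1.07. In the bin at nt 401 the ratio was 1.41 with eIF3c, against 0.254 to 0.898 with eIF3a. The eIF3c-bound library thus rose 50 to 100 nt before the eIF3a-bound libraries by the middle of the rise, a distance of 1 or 2 bins. Near the end, the bin at nt 751 held 3.18 with eIF3c and 4.23, 7.01 and 5.82 with eIF3a. It was the highest bin of the gene in all 4 selected libraries.

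PRT1 encodes eIF3b, the subunit to which eIF3g and eIF3i attach, and it was the mRNA that the eIF3a pull-down enriched most among the 4. Unselected coverage of PRT1 did not begin at the annotated start. It first reached 10% of its mean 98, 103, 104 and 103 nt downstream of the annotated start in libraries 1-2, 1-1, 2-1 and 3-1. On the other 3 genes it began at a median of 15 nt upstream. The offset of 118 nt is within 1 nt of 117 nt, which would place the first translated codon at codon 40 and leave 724 residues. No sequence was read to check for a start codon there.

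Relative to unselected ribosomes, PRT1 coverage with eIF3a changed within about 150 nt. Over nt 151 to 750 the median bin ratio was 0.153 with eIF3c and 0.0281, 0.0287 and 0.0489 with eIF3a. In the bin at nt 551 the ratio was 0.168 with eIF3c and 0.0589 to 0.0683 with eIF3a. At nt 601 it was 0.213 with eIF3c and 0.295 to 0.339 with eIF3a, at nt 651 it was 0.238 against 0.643 to 0.723, and at nt 701 it was 0.461 against 0.970 to 1.2. At nt 751 the values were 1.69 with eIF3c and 1.90 to 2.22 with eIF3a. The eIF3a-bound libraries crossed the eIF3c-bound one between nt 551 and 650 and stayed above it until nt 1100.

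The fitted step in PRT1 fell at nt 751 (codon 251) with eIF3c and at nt 601 (codon 201) in each of the 3 eIF3a-bound libraries. Its size was 2.52 with eIF3c and 5.05 ± 0.49 (SD, n = 3) with eIF3a, both on the log2 scale. Coverage after the step was 5.50 times that before it with eIF3c, and 29.3, 53.7 and 30.2 times with eIF3a in libraries 1-1, 2-1 and 3-1. The difference in size was more than the spread among the eIF3a-bound libraries. With eIF3c, however, the span before the step took in high bins next to the start of coverage. It also took in the bins from nt 601 up to nt 751. Windows described below, which leave out both, gave a smaller gap. They rose 16.6-fold with eIF3c and 52.3-fold, 77.3-fold and 42.4-fold with eIF3a. Leaving out the first 200 nt after the start of unselected coverage, the middle of the rise was first reached at nt 751 with eIF3c and at nt 651, 701 and 651 with eIF3a, 50 to 100 nt earlier. The 5′ end of PRT1 also held high ratios, next to the start of unselected coverage. The bin at nt 51 stood at 6.64 with eIF3c, its highest of the gene, and at 0.130 to 1.12 with eIF3a. Unselected coverage began at nt 98 in the partner of the eIF3c-bound library and at nt 103 or 104 in the other partners. The ratios of the bin at nt 51 therefore divide by very little unselected coverage and cannot be read as enrichment there. The bin at nt 101 stood at 0.927 with eIF3c and at 0.0337 to 0.169 with eIF3a.

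**Figure D2:**
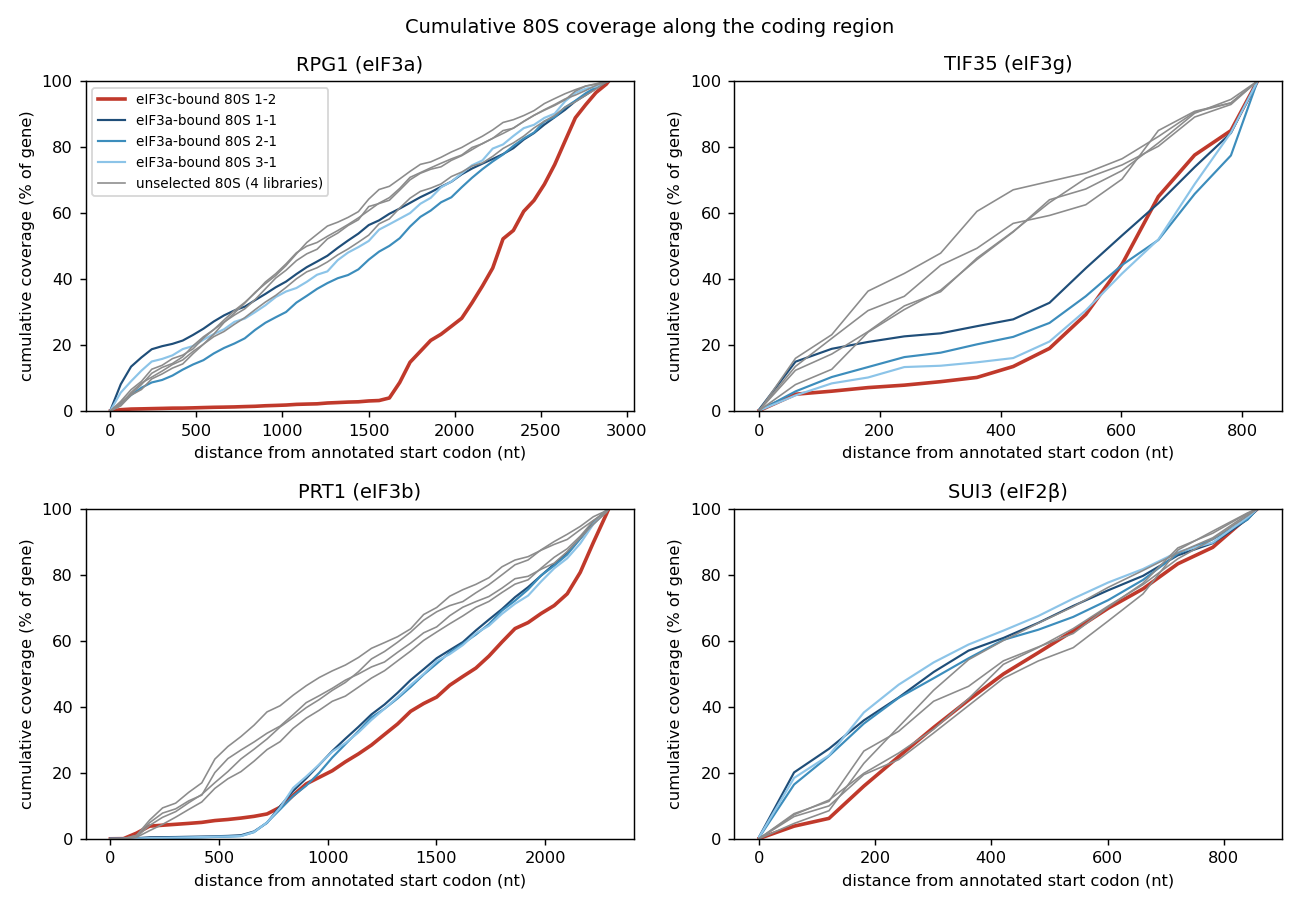
Cumulative 80S coverage as a percentage of each gene's total against distance from the annotated start codon, for the eIF3c-bound library, 3 eIF3a-bound libraries and 4 unselected libraries. The eIF3c-bound curve of RPG1 stays near the floor until about the middle of the gene, and the 3 eIF3a-bound curves of PRT1 stay near it until the step at nt 601.

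SUI3 encodes eIF2β, which belongs to a different complex, and coverage of its mRNA showed no late step with either subunit. The 3′ 50% held 49.3% of SUI3 coverage with eIF3c and 38.7%, 39.4% and 36.5% with eIF3a in libraries 1-1, 2-1 and 3-1. In the unselected libraries it held 45.1% (1-2), 46.5% (1-1), 50.1% (2-1) and 39.1% (3-1). Each eIF3a-bound library lay below its own unselected library, the groups overlapped narrowly, and the eIF3c-bound library lay within the unselected range.

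The 5′ end of SUI3 separated the tagged subunits. In the first bin the ratio was 0.567 with eIF3c and 2.48 to 4.38 with eIF3a, and in the bin at nt 51 it was 0.386 against 1.72 to 3.06. In the body of the gene the eIF3c-bound ratio was higher in several places. It was 2.05 at nt 301, against 0.644 to 0.796 with eIF3a, 2.60 at nt 451, against 0.812 to 1.35, and 2.32 at nt 751, against 0.726 to 0.861. Of 17 bins, 8 (47.1%) lay above and 3 (17.6%) below all eIF3a-bound libraries. Over the bins of all 4 genes these shares were 39.4% and 41.6%, so SUI3 as a whole did not part more than the other genes.

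**Figure D3:**
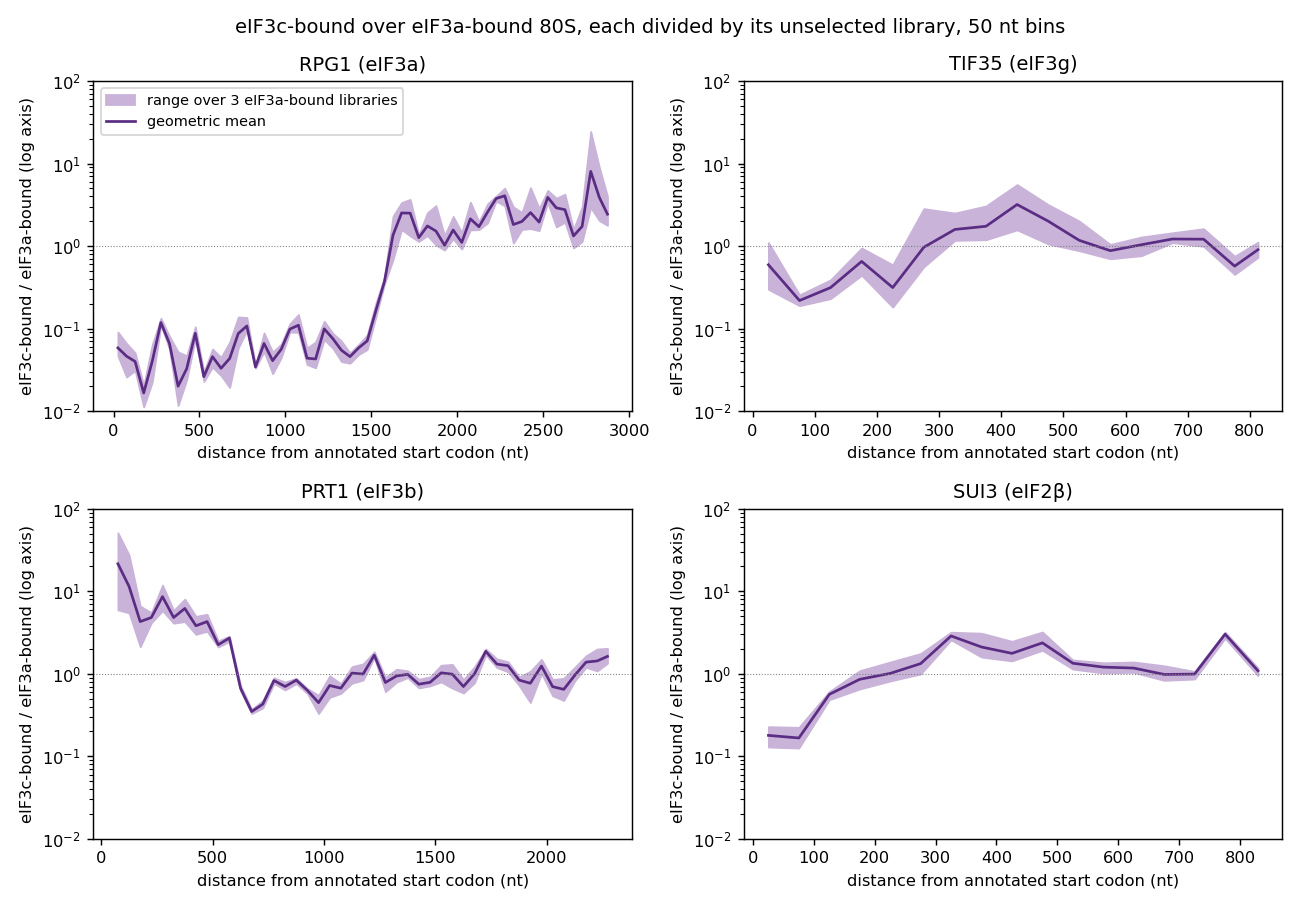
Ratio of eIF3c-bound to eIF3a-bound 80S (log axis), each first divided by its unselected library, against distance from the annotated start codon in 50 nt bins, with the geometric mean as a line and the range over the 3 eIF3a-bound libraries as a band. In RPG1 the line is at most 0.164 before nt 1551 and over 1 from nt 1601, and in PRT1 it is over 2 before nt 601 and 0.348 at nt 651.

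The share of bins in which the single eIF3c-bound library lay outside all 3 eIF3a-bound libraries described how far the profiles parted. Over the 137 bins of the 4 genes with a ratio in every library, 39.4% lay above and 41.6% below, and 81% outside in either direction. Outside bins numbered 22 above and 32 below of 58 in RPG1, 19 and 17 of 45 in PRT1, 8 and 3 of 17 in SUI3, and 5 and 5 of 17 in TIF35. RPG1 thus had the highest share outside of the 4 genes and TIF35 the lowest. Bins of 1 gene share footprints and are not replicates. Even without a difference between the tagged subunits, 1 library would often lie outside 3 others. The shares therefore only rank the genes.

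A single value per gene compared the 3′ 50% with the 5′ 50% of the coding region, as log2 of the ratio, selected minus unselected of the same number. For RPG1 it was 5.58 with eIF3c and 0.28, 1.02 and 0.09 with eIF3a (mean 0.46 ± 0.50, SD, n = 3). The difference of 5.12, a factor of 34.8, was several times the spread between the eIF3a-bound libraries. For TIF35 it was 3.10 with eIF3c and 2.33 ± 0.65 (SD, n = 3) with eIF3a, a difference of 0.77 that was 0.40 without the eIF3a-bound library 1-1. For PRT1 it was 1.52 with eIF3c and 1.05 ± 0.25 (SD, n = 3) with eIF3a. This difference of 0.46 turned to −1.28 when the median bin of each side replaced the sum, and to −0.0089 between the last and the first of 3 equal parts. For SUI3 it was 0.24 with eIF3c and −0.41 ± 0.24 (SD, n = 3) with eIF3a, a difference of 0.65 that was 0.28 without the first and last 60 nt. The eIF3c-bound value lay above the eIF3a-bound range in all 4 genes. With 1 library against 3, an exact two-sided permutation test cannot go below 0.5, so no p is given for these differences.

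**Figure D4:**
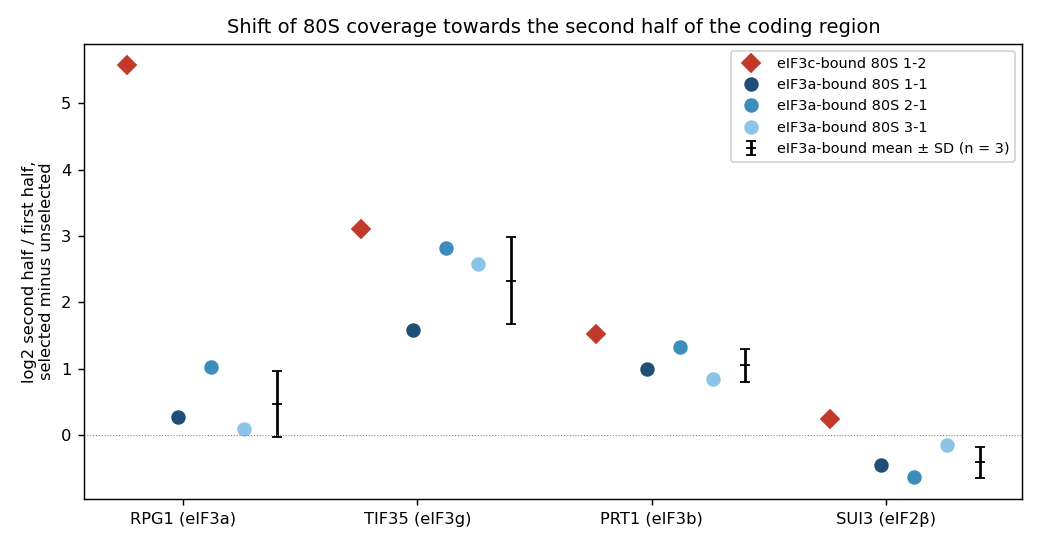
Log2 ratio of 80S coverage in the 3′ 50% over the 5′ 50% of the coding region, selected minus unselected library of the same number, for the eIF3c-bound library (diamond) and 3 eIF3a-bound libraries (circles), with the mean ± SD of the eIF3a-bound libraries. The eIF3c-bound value is 5.58 for RPG1, against 0.09 to 1.02 with eIF3a, and the values for TIF35 lie between 1.59 and 3.10.

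Taking the 4 selected libraries of either subunit against their 4 unselected partners allowed a test. TIF35 averaged 2.09 ± 0.59 in eIF3-bound and −0.43 ± 0.39 in unselected 80S (SD, n = 4 each), with an exact permutation p = 0.0286, the smallest that 4 against 4 allow. PRT1 averaged 1.13 ± 0.25 in eIF3-bound and −0.03 ± 0.21 in unselected 80S, again with exact permutation p = 0.0286. RPG1 averaged 1.32 ± 2.54 in eIF3-bound and −0.43 ± 0.24 in unselected 80S (exact permutation p = 0.0571). SUI3 averaged −0.53 ± 0.33 in eIF3-bound and −0.28 ± 0.27 in unselected 80S (exact permutation p = 0.314). Selected libraries were higher in 4 of 4 pairs for RPG1, TIF35 and PRT1, and in 1 of 4 for SUI3. After Benjamini-Hochberg adjustment over the 4 genes, the exact permutation p was 0.0571 for TIF35 and PRT1, 0.0762 for RPG1 and 0.314 for SUI3, so none passed 0.05. Without the first and last 60 nt, RPG1, TIF35 and PRT1 each passed (exact permutation, adjusted p = 0.0381). TIF35 and PRT1 were already at the smallest unadjusted p, so their adjusted p fell only because RPG1 reached it too. The PRT1 difference itself went from 1.17 to 1.16. The permutation test does not pair the libraries. With libraries paired by number, an exact sign-flip test cannot go below 0.125, so no gene could pass. The RPG1 difference of 1.74 rested on the eIF3c-bound library and was 0.46 without number 1-2.

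Windows within a gene gave the rise free of the scaling to gene totals. Coverage of the last of 3 equal parts of the coding region, the 3′ window, was set against that of nt 201 to 400, moved by 117 nt in PRT1, each over the unselected library. RPG1 rose 95.1-fold with eIF3c, against 2.53, 2.39 and 1.18 with eIF3a. PRT1 rose 16.6-fold with eIF3c, against 52.3, 77.3 and 42.4 with eIF3a. TIF35 rose 8.86-fold with eIF3c, against 8.58, 8.94 and 11.4 with eIF3a, so that the eIF3c-bound value lay inside the range. SUI3 stood at 0.806 with eIF3c and 1.07, 0.886 and 1.39 with eIF3a. The order of the 3 eIF3 genes thus differed, with RPG1 highest for eIF3c and PRT1 highest for eIF3a.

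Levels between genes cannot be read from profiles scaled to each gene, so coverage was also set against that of SUI3 in the same library. RPG1 coverage over SUI3 was 3.03 times the unselected level with eIF3c, and 0.578, 1.54 and 1.34 times with eIF3a. PRT1 was at 1.37 times with eIF3c and at 35.6, 74.0 and 65.5 times with eIF3a. The PRT1 difference was −5.34 on the log2 scale, with an SD of 0.57 among the eIF3a-bound libraries. TIF35 was at 1.53 times with eIF3c and at 2.19, 3.20 and 5.13 times with eIF3a, a difference of −1.11 that turned to 2.07 against the sum of the 4 genes. PRT1 makes up most of that sum in the eIF3a-bound libraries. On this scale the RPG1 difference was 4.69 and the PRT1 difference −2.17.

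SUI3 is itself a choice of yardstick and need not be neutral. Another yardstick was the geometric mean of the early windows of RPG1, TIF35 and PRT1. In TIF35 and PRT1 these windows lie before the steps with both tagged subunits. In RPG1 the window lies before the step with eIF3c, and no comparable step was found with eIF3a. This yardstick is therefore not alike for the tagged subunits either. Against it, SUI3 coverage stood at 6.26 with eIF3c and at 1.91, 0.916 and 0.778 with eIF3a. Against these early windows the 3′ window of RPG1 stood at 56.2 with eIF3c and at 1.42, 2.25 and 1.08 with eIF3a. The 3′ window of PRT1 stood at 13.8 with eIF3c and at 98.4, 108 and 63.4 with eIF3a. That of TIF35 stood at 18.0 with eIF3c and at 8.13, 6.80 and 8.39 with eIF3a. With this yardstick the eIF3c-bound library lay above all 3 eIF3a-bound libraries on RPG1 and TIF35, and below them on PRT1. The direction on TIF35 depended on the yardstick. Over its own early window the 3′ window of TIF35 stood at 8.86 with eIF3c, inside the eIF3a-bound range of 8.58 to 11.4. Over SUI3 it stood at 2.87 with eIF3c, below the range of 4.25 to 10.8 with eIF3a.

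**Figure D5:**
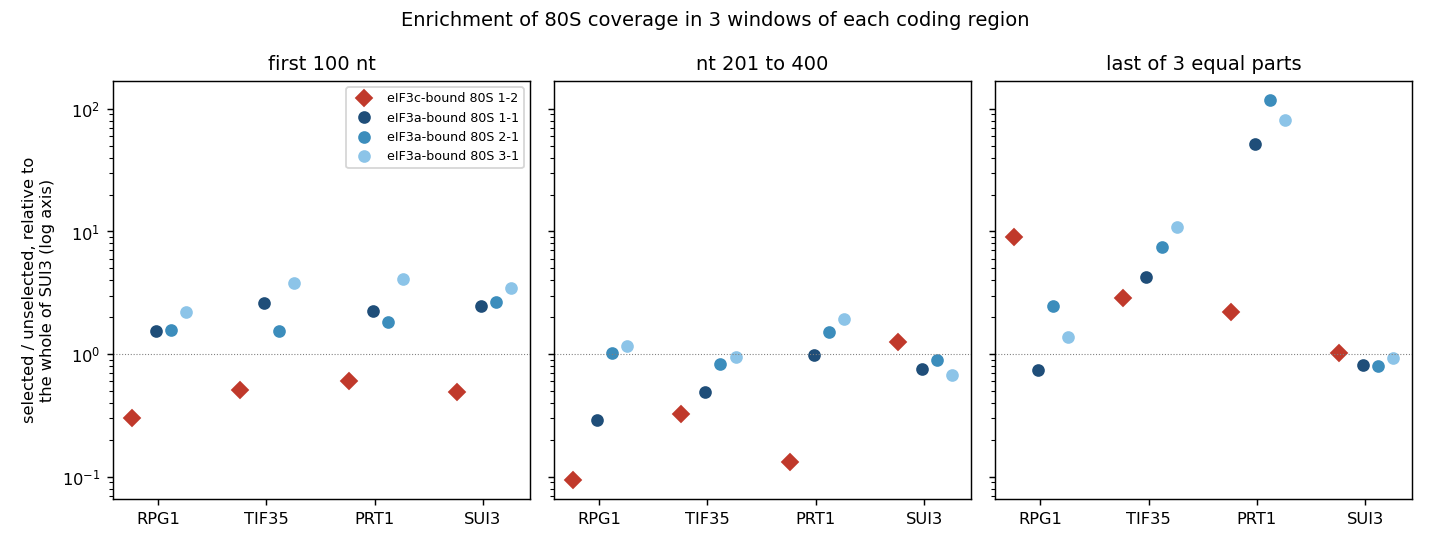
Selected over unselected 80S coverage in the first 100 nt, nt 201 to 400 and the last of 3 equal parts of each coding region, relative to the whole of SUI3 in the same library (log axis), with windows of PRT1 moved by 117 nt except the last. Diamonds are the eIF3c-bound library and circles the 3 eIF3a-bound libraries. In the last part RPG1 stands at 8.97 with eIF3c, against 0.742 to 2.45 with eIF3a, and PRT1 at 2.21 with eIF3c, against 51.4 to 118 with eIF3a.

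Whether ribosomes near start codons differed between the tagged subunits depended on the yardstick. Relative to the whole of SUI3, the first 100 nt stood at 0.304 in RPG1, 0.514 in TIF35, 0.607 in PRT1 and 0.491 in SUI3 with eIF3c. With eIF3a they stood at 1.53 to 2.23 in RPG1, 1.53 to 3.81 in TIF35, 1.82 to 4.13 in PRT1 and 2.46 to 3.49 in SUI3. The groups did not overlap in any of the 4 genes on this yardstick. Against the early windows of RPG1, TIF35 and PRT1, the eIF3c-bound value lay inside the eIF3a-bound range in all 4. There the first 100 nt stood at 1.90 with eIF3c and 1.45 to 2.93 with eIF3a in RPG1, and at 3.22 with eIF3c and 1.40 to 5.03 with eIF3a in TIF35. They stood at 3.80 with eIF3c and 1.66 to 4.31 with eIF3a in PRT1, and at 3.08 with eIF3c and 2.45 to 4.71 with eIF3a in SUI3. Within each gene, the first 100 nt over nt 201 to 400 were 3.22 with eIF3c and 1.54 to 5.23 with eIF3a in RPG1, and 1.59 against 1.85 to 5.31 in TIF35. They were 4.56 with eIF3c and 1.19 to 2.29 with eIF3a in PRT1. In SUI3 they were 0.390 with eIF3c and 2.98 to 5.15 with eIF3a. The direction of this contrast thus varied by gene, and SUI3 was the one whose start was lower than its early body with eIF3c.

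Footprints of 40S on the same mRNAs gave another readout, with 1 library for each selection. Coding-region counts scaled to library size (CPM) over the unselected 40S library of the same number were 0.439 with eIF3c and 0.426 with eIF3a for RPG1. For PRT1 they were 0.749 with eIF3c and 0.656 with eIF3a, for SUI3 0.660 with eIF3c and 0.670 with eIF3a, and for TIF35 0.510 with eIF3c and 0.825 with eIF3a. RPG1 had 337 counts with eIF3c and 249 with eIF3a, and PRT1 had 1017 with eIF3c and 678 with eIF3a. With 1 library each there is no replicate check. The order that separated RPG1 and PRT1 in 80S coverage was not seen in these 40S counts, in which all 4 genes were lower in selected than in unselected libraries. The measures are unlike, since the 40S counts cover the whole coding region relative to library size. The 80S order came from windows within genes and from levels over SUI3. PRT1 is also unlike the other genes in the 40S counts. It had 0 counts in the start-codon area in all 4 libraries, and 95.4% to 98.7% of its counts lay in the coding region. In RPG1, TIF35 and SUI3 that share was 31.2% to 80.0%. Coding-region counts of PRT1 may thus include footprints that fall in the start-codon area of the other genes, which was not tested.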

How the data were processed

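The authors deposited coverage per nucleotide over 4 genes for 8 libraries of 80S as signal in whole numbers with no scaling between libraries, and counts of 40S footprints per gene and transcript area. Tools listed without a role in the submitters' processing notes are TopHat2 2.1.0, Bowtie2 2.2.6, Bowtie 1.2.2 and CASAVA 1.8, with build R64. RNA of about 18 to 85 nt was selected, per the labels. How multi-mapping and duplicate reads were handled is not stated in the labels. Each sheet is 100 positions longer than the RefSeq coding length, so the start codon was placed at position 51. Of the 40S libraries counted, 2 were not used.

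Scaled ratios were taken in 50 nt bins, leaving out bins with no unselected coverage. Steps had at least 3 bins on each side, and a middle of the rise, searched from 200 nt after the start of coverage, was given for TIF35 and PRT1. A planned rule placed an onset at the first bin from which every later bin kept over 2 times the median ratio before the midpoint. It placed RPG1 at nt 1501 with eIF3c and found an onset in 1 of 3 eIF3a-bound libraries, so the step is reported in its place. All 4 genes with a sheet are named. The members and measures were chosen with earlier results of these data known, and the step, middle of the rise, windows, start position of PRT1 and early-window yardstick after seeing the coverage. Of the measures, only the fitted step and the 3′ over 5′ value were tested on simulated coverage. The place of the step was required to be right only for the largest simulated step. Exact permutation tests, all two-sided, ran under Python 3.11.15 with pandas 2.3.3, NumPy 2.4.6 and SciPy 1.17.1, and plots under matplotlib 3.10.9.

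A library number marks the same strain in the selected and unselected groups. Deviations of binned coverage from the group means correlated at 0.15, 0.34 and 0.27 within numbers 1-1, 2-1 and 3-1, and at −0.28 to 0.06 between numbers. The numbers were taken to pair the samples. Deviations from a group mean cancel within the group, which lowers the values between numbers, so the contrast is weak evidence. Number 1-2 was not in this check. No sequence is shown, since none was given with the files used here.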

Additional observations from a re-analysis of the deposited data

Results flagged for a closer look

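In RPG1 the eIF3c-bound library stood far from the 3 eIF3a-bound libraries, with a log2 ratio of 3′ to 5′ coverage of 5.10 before division by the unselected library, against −0.24, 0.40 and 0.01 with eIF3a. The group of 4 mixes both tagged subunits. Of 8 such groups examined this was the only one with a sample so far from the rest. Chance gives about 1 in 20 for a single group, so a flag somewhere among 8 groups is less rare. The flagged sample is the only eIF3c-bound library, so the flag repeats the contrast given above. In SUI3 the same measure after division was 0.24 with eIF3c, while all 3 eIF3a-bound libraries were below 0, at −0.46, −0.63 and −0.16. The difference was not tested, and 1 of the groups has a single library.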

How the results depend on the processing

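Of 110 alternatives, 90 kept the direction and the side of the threshold or moved by less than the spread between libraries. For the difference between eIF3c and eIF3a in 3′ over 5′ coverage (log2), PRT1 reversed to −0.0089 between the last and first of 3 equal parts and to −1.28 with medians of bins. SUI3 moved to 0.28 without the first and last 60 nt, to 1.17 between the last and first of 3 equal parts and to 0.14 with medians. When an eIF3a-bound library was left out, RPG1 ranged from 4.93 to 5.40 and TIF35 from 0.40 to 1.02.

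For eIF3-bound against unselected 80S, leaving out the first and last 60 nt gave 1.86 for RPG1, 2.71 for TIF35 and 1.16 for PRT1, each with an adjusted exact permutation p = 0.0381. For TIF35 and PRT1 the adjusted p fell through the change in RPG1. With the replicate block, an exact sign-flip test of pairs, the differences were 1.74 for RPG1, 2.52 for TIF35, 1.17 for PRT1 and −0.25 for SUI3. The adjusted p was 0.167 for the first 3 and 0.375 for SUI3, and 4 pairs cannot go below 0.125 before adjustment.

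The planned onset, eIF3c minus eIF3a, was −1300 nt for RPG1, −33.3 nt for TIF35 and −133 nt for PRT1. For RPG1 it rested on the eIF3a-bound library 1-1 alone, with an onset at nt 2801, near the end of the gene. Libraries 2-1 and 3-1 had none. RPG1 gave −1380 nt in 30 nt bins, −1200 nt in 100 nt bins, −1075 nt at 1.5 times and −250 nt with the step. The last value averages eIF3a-bound steps at nt 1101, 1551 and 2751, of which the one at nt 2751 was downward. These RPG1 values therefore do not place a rise with eIF3a. TIF35 gave −83.3 nt at 1.5 times and −66.7 nt at 3 times. PRT1 gave 967 nt in 100 nt bins, 1450 nt at 3 times and 1350 nt without the replicate block, and −275 to 125 nt when a library was left out. With the fitted step PRT1 gave 150 nt, opposite in direction to the planned onset. Planned onsets of PRT1 lay at nt 751 with eIF3c and at nt 1401, 601 and 651 with eIF3a in libraries 1-1, 2-1 and 3-1. Without library 1-1 the planned difference was 125 nt, so the order in PRT1 depended on the measure and on that library. SUI3 had no onset, and some RPG1 settings gave none. Relative to the 4 genes together, level differences were 4.69 for RPG1, 2.07 for TIF35 (reversed) and −2.17 for PRT1. The cause of these changes was not tested. A single eIF3c-bound library, 1 strain per tagged subunit and 361 footprints over SUI3 in the shallowest eIF3a-bound library limit the precision.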

Other observations

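Coverage upstream of start codons differed by gene and library. From 50 to 21 nt upstream of the start codon of RPG1, mean coverage was 4.33% of the coding mean with eIF3c and 78.6%, 26.3% and 23.1% with eIF3a in libraries 1-1, 2-1 and 3-1. The unselected libraries stood at 0%, 8.75%, 0% and 0.133% there, for 1-2, 1-1, 2-1 and 3-1. Selection also changes the coding mean, so a low percentage can come from a coding region rich in coverage. Summed coverage in this window, not scaled for depth, was 308 with eIF3c and 453, 104 and 716 with eIF3a. As a percentage of the coding mean, the same window on SUI3 held 46.6% with eIF3c and 118%, 17.9% and 41.2% with eIF3a. It held 10.2%, 3.49%, 0.592% and 3.66% in the unselected libraries. TIF35 held 4.77% with eIF3c, 11.6%, 1.48% and 0.711% with eIF3a, and 0% to 1.86% without selection. PRT1 held 0.478% with eIF3c, 0% to 0.106% with eIF3a and 0% to 1.45% without selection. In RPG1, SUI3 and TIF35 the selected libraries spread widely, and by percentage the eIF3a-bound library 1-1 was the highest of them.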
